A study of Arabidopsis thaliana with 16 samples.

Results

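Zinc (Zn) deficiency was studied here in shoots of 7-week-old wild-type Arabidopsis thaliana, on 4 of the 16 one-colour Affymetrix ATH1 arrays of the series: 2 arrays of Zn-deficient (-Zn) shoots and 2 of control shoots, chosen by their labels. All plants had grown in hydroponic culture. The -Zn plants spent 4 weeks in control medium and then 3 weeks in Zn-deficient medium, while the control plants stayed in control medium for all 7 weeks. Used for comparison were -Zn and control roots of the same experiment (2 arrays each), and 21-day shoots of hma2 hma4 double mutants and of wild type (2 arrays each), both grown on agar with control medium. HMA2 and HMA4 are metal-transporting ATPases that pass Zn to the xylem for its way to the shoot. The labels do not say whether replicates were separate plants or cultures, or how many plants were pooled, so p-values measure the spread between these arrays, which may be technical. Changes in the level of a transcript in whole shoots cannot be told apart from changes in the share of the cells that hold it.

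Zn is a structural or catalytic part of many enzymes and of zinc-finger transcription factors. Plants sense its shortage through the transcription factors bZIP19 and bZIP23, which bind the promoters of ZIP transporters and other genes and raise their transcription when Zn is low. ZIP proteins carry metal ions into the cytoplasm, MTP proteins move them into vacuoles or the endoplasmic reticulum, and nicotianamine chelates them for transport. A shoot that runs short of Zn also loses activity of enzymes such as copper-zinc superoxide dismutase and carbonic anhydrase.

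Signals are in the array units of the MAS5 algorithm, on arrays that the authors had scaled to a common mean. Log2 changes are differences of log2(signal + 8), -Zn minus control, and the threshold is a Benjamini-Hochberg adjusted p of 0.05 from limma over all 17059 probe sets tested. The fit shares 1 estimate of the spread between shoot and root arrays. Replicates differed more in shoots: the SD of their log2 difference was 0.72 in -Zn and 0.65 in control shoots. In roots it was 0.58 and 0.41. On the 4 shoot arrays the median signal was 171 and 136.1 in -Zn shoots and 146.1 and 150.1 in control shoots. In the first of the array's actin control pairs, the 3' probe set exceeded the 5' one by a ratio of 8.57 on -Zn replicate 1 and 1.74 on -Zn replicate 2, against 2.7 and 2.36 in controls, whereas the second actin pair gave 1.83 and 1.83 against 2.85 and 1.55. The part that RNA quality had in the results below was not tested. Shoot identity was checked on photosynthesis genes: the 7 nuclear genes of that list summed to between 84964 and 121386 on the shoot arrays and to between 556.1 and 780.5 on the root arrays. Of 14 root markers, 3 had a probe set, and their summed signal was 1114 and 277 in -Zn shoots and 199.8 and 406 in control shoots, against 6290 to 7444 in roots. None of them was at 0. The root marker BGLU23, which encodes the beta-glucosidase PYK10, stood at 990.5 on -Zn replicate 1 and 135.3 on -Zn replicate 2, against 63.3 and 187.4 in controls. Over the 3 markers, log2 changes ran from -1.35 to 1.68 with 0 called. With 1 array left out, EXPA7 lay between -1.88 and -0.81 and EXPA18 between -0.36 and 0.70. The part that these markers had in the results was not tested.

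The shoot arrays also differed in a way that crosses the labels. In 158 probe sets the difference of -Zn minus control was above 1 on the log2 scale for replicate 1 and below -1 for replicate 2, and in 28 the reverse. What -Zn replicate 1 and control replicate 2 share in these probe sets was not tested, and neither was whether arrays were mixed or hold other tissue. AT1G12030, AT1G20380 and ZIP9, described next, were high on both -Zn arrays and low on both control arrays. They were ranked as the largest rises on these same arrays, so their pattern cannot test the labels.

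Zn-deficient shoots had 131 probe sets higher (0.768% of those tested) and 26 lower (0.152%). With the spread taken from the 4 shoot arrays alone, 16 of these were called. The annotation names a single gene for 57 of the higher and 10 of the lower ones, and 90 of the 157 stay unnamed here. The rises had a median size of 2.14 on the log2 scale and the falls of 1.93, while the median log2 change of all tested probe sets was -0.02. Among named, called genes brighter than the median signal, the 3 largest rises were those of AT1G12030, AT1G20380 and ZIP9, a gene of the Zn deficiency list. The other named risers included 6 receptor-like kinase genes, and the fallers a signal peptide gene and a methionine sulfoxide reductase gene. These counts depended on single arrays and lay between 17 and 331 with 1 of the 4 left out, lowest without control replicate 1 and highest without control replicate 2.

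AT1G12030, AT1G20380 and ZIP9 passed the threshold under all 16 alternative settings. AT1G12030, which encodes a protein with a domain of unknown function (DUF506), had signals of 2552 and 1756 in -Zn shoots, against 11.6 and 5.28 in control shoots. Both control arrays lay below the background level of 52.2, the highest signal of the Trpn control probe sets, so the rise was at least 40.5-fold (log2 change 7.04, SE 0.33, limma adjusted p = 7.1e-05). Where a group lies below background, the size of the log2 change is set in part by the added constant of 8 and gives no bound. No -Zn signal came near a control signal, with a gap of 6.49 on the log2 scale between the nearest arrays.

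ZIP9, a ZIP-family transporter gene, had signals of 3512 and 4895 in -Zn shoots, against 134 and 108.7 in control shoots. The groups were far apart and both control arrays were above background. ZIP9 rose 32.3-fold (log2 change 5.01, SE 0.29, limma adjusted p = 0.000123).

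AT1G20380, a gene for a prolyl oligopeptidase-type serine peptidase, had signals of 7803 and 5248 in -Zn shoots, against 191.9 and 189 in control shoots. Its control arrays nearly coincided. It rose 32.3-fold (log2 change 5.01, SE 0.26, limma adjusted p = 7.8e-05). The 2 unnamed probe sets with the largest rises, 264574_at and 260462_at, had log2 changes of 6.06 and 5.51, both called.

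Other genes of the Zn deficiency list gave smaller values. Of its 14 loci, 3 were measured by their own probe set, and 1, ZIP9, was called higher. MTP2, which encodes a Zn transporter of the endoplasmic reticulum, had signals of 60.3 and 84.6 in -Zn shoots, against 22.5 and 16.3 in control shoots. Both -Zn arrays lay above both controls, which were below background, but the log2 change of 1.55 did not pass (limma adjusted p = 0.0819). bZIP19, the sensor gene, had signals of 864.3 and 588.3 against 868.9 and 648.8, and the groups overlapped (log2 change -0.07).

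Metal transport and storage genes outside that list had 0 calls. ZIP6 (log2 change -0.13), the manganese transporter gene MTP11 (-0.16), MTP12 (0.12) and the metallothionein gene MT1C (-0.21) all missed the threshold. CCS, the chaperone that delivers copper to copper-zinc superoxide dismutase, had signals of 274.9 and 189.9 in -Zn shoots, against 2693 and 268.4 in control shoots. Its log2 change of -1.87 rested on 1 high control array and did not pass (limma adjusted p = 0.343).

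**Figure D1:**
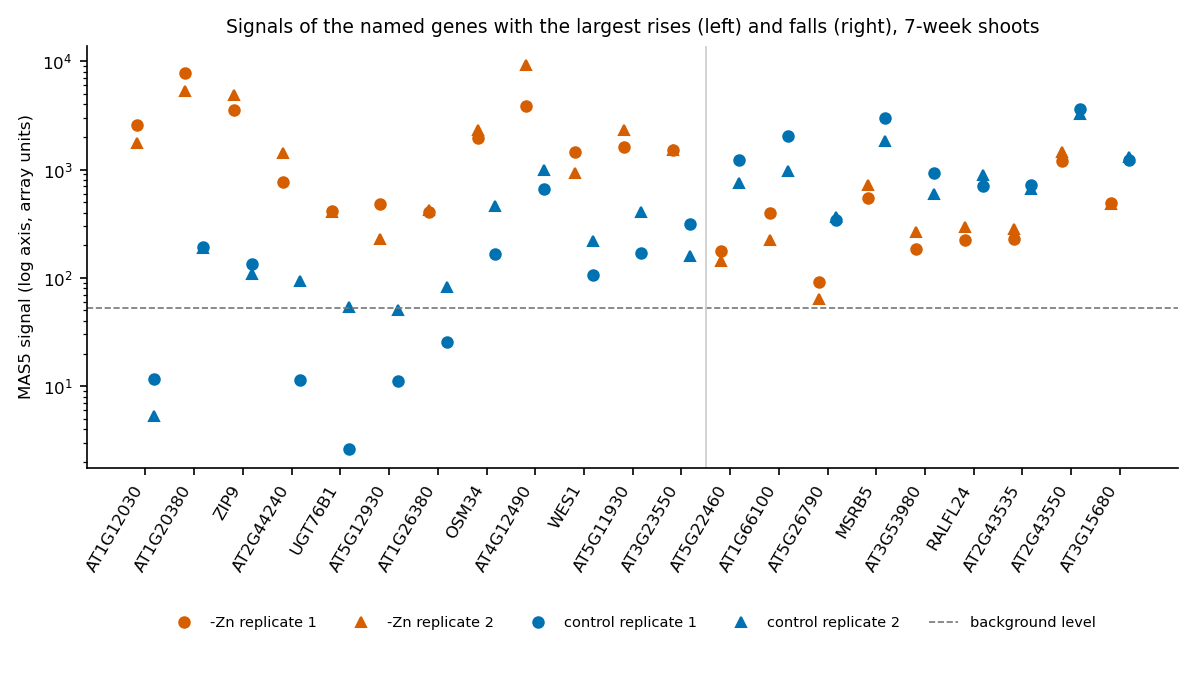
MAS5 signal (log axis) of the 12 named genes with the largest rises and the 9 with the largest falls in 7-week shoots among called, non-overlapping genes brighter than the median signal, 1 symbol per array, -Zn left of control in each gene, with the background level of 52.2 dashed. AT1G12030, AT1G20380 and ZIP9 are more than 4 log2 units apart between groups, while UGT76B1 and AT2G44240 have 1 control array far below the other.

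Iron-related genes were measured at 5 of 21 loci, 4 of them tested. F6'H1, which encodes the enzyme that opens the synthesis of the coumarin scopoletin, had signals of 2002 and 2547 in -Zn shoots, against 16.1 and 278.1 in control shoots. The groups did not overlap, but control replicate 1 lay far below control replicate 2, and the log2 change of 4.77 missed the threshold (SE 0.89, limma adjusted p = 0.0521). The iron-response regulator gene PYE (log2 change 0.19), the coumarin hydroxylase gene S8H (-0.11) and the beta-glucosidase gene BGLU42 (-0.05) were also not called.

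Receptor-like kinases, which pass signals from the cell surface, accounted for 6 of the 57 named risers, with log2 changes of 1.89 to 3.11. This grouping was made after the values were seen. How many of all tested genes encode such kinases was not counted, so the 6 cannot be set against a share. AT5G59680, a leucine-rich repeat receptor kinase gene, had signals of 218.1 and 89.4 in -Zn shoots, against 8.74 and 9.58 in control shoots. It was below background in both controls and at least 2.67-fold higher in -Zn shoots (log2 change 3.11, limma adjusted p = 0.0153).

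AT1G51860, another leucine-rich repeat receptor kinase gene, had signals of 95.9 and 78.9 in -Zn shoots, against 4.73 and 1.95 in control shoots, and was at least 1.67-fold higher. Its neighbour AT1G51890 had 476.4 and 468.5 against 88.6 and 135.5 and rose 4.08-fold. Of the 11 genes of that family from AT1G51790 to AT1G51910 with a probe set, 7 were tested, 2 were called higher and 0 lower, and their median log2 change was 0.67, or 0.40 without -Zn replicate 1 and 1.46 without -Zn replicate 2. These genes are close relatives, so cross-hybridization between them is possible. AT1G61370, an S-locus lectin kinase gene, rose by 2.19 on the log2 scale, and was the 1 called among the 5 tested genes of its cluster, itself included, all with positive log2 changes. Both groups of relatives were formed after the values were seen. Over all tested probe sets, 0.768% were called higher.

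Further risers encode other proteins of signalling classes. AT5G45000 encodes a protein with a TIR domain, as found in immune receptors, and AT5G18470 a lectin. AT2G42350 and AT5G53110 encode RING-type proteins, a class that includes many ubiquitin ligases. AT2G42350 had signals of 143.2 and 156.1 in -Zn shoots, against 17.4 and 22.2 in control shoots, below background in both controls and at least 2.86-fold higher. CML41, a calmodulin-like calcium sensor gene, had 1038 and 1234 against 350.6 and 391.1 and rose 3.01-fold (limma adjusted p = 0.0394). It was the 1 called of 7 tested CML genes, against 0.768% of all tested probe sets called higher. The CML median log2 change was 0.60. This median was 1.04 without -Zn replicate 1 and 0.17 without -Zn replicate 2.

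UGT76B1, which encodes a glycosyltransferase acting on salicylic acid and isoleucic acid, had signals of 411.1 and 404.4 in -Zn shoots, against 2.64 and 54.2 in control shoots. The -Zn arrays nearly coincided while control replicate 1 was far below control replicate 2. It was called (log2 change 4.01, SE 0.67, limma adjusted p = 0.0427).

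AT1G26380, which encodes an oxidoreductase of the berberine bridge enzyme family, had 406.8 and 425.1 in -Zn shoots, against 25.4 and 82 in control shoots (log2 change 2.95, limma adjusted p = 0.049). Its neighbour AT1G26390 stood at a log2 change of 2.62 and missed the threshold (limma adjusted p = 0.196). CCOAMT, which encodes a caffeoyl-CoA O-methyltransferase, had 837.9 and 868.1 against 130.8 and 191.8 and rose 5.17-fold. The class III peroxidase gene Prx37 had 374.3 and 307.9 against 64.3 and 65 and rose 4.79-fold.

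Methionine sulfoxide reductases of type B repair oxidized methionine, and their genes moved in both directions. MSRB9 had signals of 2115 and 2931 in -Zn shoots, against 253.1 and 621.9 in control shoots, and rose 6.16-fold (limma adjusted p = 0.0414). MSRB5 had 546.3 and 723.9 in -Zn shoots, against 2983 and 1831 in control shoots, and fell by 1.88 in log2 units (limma adjusted p = 0.0464). Of the other 2 measured, MSRB6 had a log2 change of -1.34 and MSRB3 of 0.74, neither called.

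A stress gene and a hormone gene were among the large rises. OSM34, an osmotin-like gene, had signals of 1957 and 2332 in -Zn shoots, against 166.7 and 461.3 in control shoots, and rose 7.49-fold (limma adjusted p = 0.032). It was the 1 called of 3 tested genes of the abscisic acid, cold and drought list, against 0.768% of all tested probe sets called higher. The other 2, COR15A and COR47, had negative log2 changes, and the list median was -0.65. WES1, which encodes the GH3-family enzyme GH3.5 that conjugates auxin to amino acids, had 1449 and 934.9 against 106.3 and 217 and rose 7.31-fold (limma adjusted p = 0.0322). WES1 was the 1 called of 3 tested GH3 genes, a family examined after the values were seen, and all 3 had positive log2 changes. AT4G12490, a gene of the lipid transfer protein family, had 3867 and 9274 against 653.8 and 993.7 and rose 7.37-fold. The groups of OSM34, WES1 and AT4G12490 did not overlap, which the rule that picked them required.

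The glutaredoxin-family gene AT5G11930 had 1627 and 2295 in -Zn shoots, against 170.2 and 403.2 in control shoots, and rose 7.17-fold. AT3G23550, which encodes a MATE-type efflux carrier, had 1525 and 1506 against 315.2 and 159 and rose 6.56-fold. Hsp70-2, a heat shock protein gene, had 3175 and 2448 against 519.4 and 841 and rose 4.18-fold. In each of these genes both -Zn arrays exceeded both controls, as in all 131 probe sets called higher. Hsp70-2 was the 1 called of 2 tested HSP genes, against 0.768% of all tested probe sets called higher. HSP22 had a log2 change of -0.48. The 4 tested genes of the heat shock and oxidative stress list had a median of -0.53, with 0 called higher and 1 lower.

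Membrane lipid transport was represented by P4-type ATPases, which flip phospholipids between the leaflets of a membrane. The family was examined after the values were seen. Of 9 members with a probe set, 8 were tested, 2 were called higher and 0 lower, with a median log2 change of 0.97. Over all tested probe sets, 0.768% were called higher. AT3G25610 had signals of 844.5 and 757.8 in -Zn shoots, against 164.9 and 266.3 in control shoots, and rose 3.71-fold. AT1G17500 had 616.7 and 412 against 171.2 and 160.4 and rose 2.95-fold. Among those not called, AT1G72700 had a log2 change of 1.35 (limma adjusted p = 0.0799).

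AT2G44240, of the DUF239 family, had signals of 768 and 1408 in -Zn shoots, against 11.4 and 94.3 in control shoots (log2 change 4.56, limma adjusted p = 0.0396). AT5G12930 had 482.7 and 226.2 against 11.2 and 50.1, was below background in both controls and was at least 6.33-fold higher. The groups did not overlap in either gene, which the rule that picked them required. Dimmer risers, named after their values were seen, included 2 glycosyltransferase genes. AT5G25820, of the exostosin family, had 102.3 and 128.3 in -Zn shoots, against 7.13 and 7.71 in control shoots, and was at least 2.19-fold higher. AT3G10320 had 99.7 and 129 against 4.63 and 18.7 and was at least 2.17-fold higher.

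The falls were fewer. AT5G22460, which encodes an alpha/beta hydrolase, had signals of 177.4 and 143.9 in -Zn shoots, against 1231 and 746.6 in control shoots, and fell by 2.53 (log2 change, SE 0.41, limma adjusted p = 0.0404). AT1G66100, a thionin gene of the antimicrobial peptide class, had 394.2 and 225 against 2039 and 961.5, a ratio of 0.217. AT5G26790 had 91.6 and 63.4 against 345 and 362.2, a ratio of 0.233. Both -Zn arrays of these genes lay below both controls, as in all 26 probe sets called lower.

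Several other falls were in genes for small secreted proteins, a grouping made after the values were seen. How many of all tested genes encode such proteins was not counted. RALFL24, of the rapid alkalinization factor signal peptides, had signals of 222.1 and 294.6 in -Zn shoots, against 707.7 and 893.6 in control shoots, and fell by 1.61. It was the 1 called among 7 tested RALFL genes, against 0.152% of all tested probe sets called lower. The RALFL median log2 change was -0.65, or -1.24 without -Zn replicate 2, and 2 of the 7 were positive. AT2G43535 and AT2G43550, neighbouring defensin-like trypsin inhibitor genes, fell by 1.42 and 1.37. AT3G53980, of the lipid transfer and protease inhibitor family, fell by 1.73. Outside this grouping, AT3G15680, a zinc-finger protein gene, had 487.7 and 482.1 against 1226 and 1305 and fell by 1.37.

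Nuclear photosynthesis genes had values below 0 without a call. All 7 tested nuclear genes of the list had both -Zn arrays below both controls, with log2 changes of -0.89 to -0.24 and 0 called. Over all tested probe sets, 21% had both -Zn arrays below both controls and 19.9% had both above. SBPASE, a Calvin cycle phosphatase gene, had signals of 6191 and 4001 in -Zn shoots, against 11595 and 7352 in control shoots (log2 change -0.89, limma adjusted p = 0.207). PRK, the phosphoribulokinase gene of the same cycle, had a log2 change of -0.66.

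Genes encoded in the plastid genome had log2 changes below 0 in 68 of 68 tested members, with a median of -0.54 and 0 called. With 1 array left out, their median lay between -0.97 without control replicate 2 and -0.29 without -Zn replicate 2. In 37 of these 68 genes both -Zn arrays lay below both controls, against 21% of all tested probe sets. The array pairs differed in size: the median difference was -1.23 for -Zn replicate 2 minus control replicate 1 and -0.12 for -Zn replicate 1 minus control replicate 2. ndhG, a subunit gene of the chloroplast NADH dehydrogenase-like complex, had signals of 701.9 and 442.6 in -Zn shoots, against 1666 and 1547 in control shoots (log2 change -1.51, limma adjusted p = 0.0528). psbK, a photosystem II subunit gene, had a log2 change of -1.45 and atpI, an ATP synthase subunit gene, of -1.55. The plastid genes' median log2 change in roots was 0.09. The 11 tested mitochondrion-encoded genes had a median of 0.19, with 0 called, and medians between 0.03 and 0.32 with 1 shoot array left out.

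Anthocyanin genes were lower on both -Zn arrays in 5 of 5 measured members, of 18 listed, with 0 called. Over all tested probe sets this share was 21%. DFR, the dihydroflavonol reductase gene, had signals of 1474 and 460 in -Zn shoots, against 2144 and 2179 in control shoots. The glucosyltransferase gene UGT75C1 had 1816 and 789.4 against 2837 and 4844. The log2 changes of the 5 genes were -1.62 to -1.27, with limma adjusted p from 0.115 to 0.202. In each of DFR and UGT75C1, -Zn replicate 2 was the lowest array.

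Senescence genes showed the opposite sign, again without a call. Both -Zn arrays exceeded both controls in 4 of 4 tested genes, of 10 listed, against 19.9% of all tested probe sets. Their median log2 change was 1.86, and between 1.37 and 2.34 with 1 array left out. SAG29, a SWEET-family sugar transporter gene, had 880.3 and 959.4 in -Zn shoots, against 66.5 and 245.5 in control shoots (log2 change 2.75, limma adjusted p = 0.0617). WRKY53, a transcription factor gene of leaf senescence, had 1181 and 1567 against 199.4 and 612.5 (log2 change 1.93, limma adjusted p = 0.107). WRKY6 (1.78) and SAG101 (1.26) were also positive. The 5 tested WRKY genes, which include WRKY53 and WRKY6, had a median of 1.45 with 0 called.

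Other lists and families had few calls. Cold-response genes had negative values, with log2 changes of -1.48 for COR15A and -1.70 for its relative COR15B, neither called. The 7 tested plant defensins had a median of -0.58 and 0 called, with PDF1.4 at 1.46 (limma adjusted p = 0.191). PDF1.2A had signals of 3076 and 12507 in -Zn shoots, against 14412 and 9041 in control shoots, and the groups overlapped. Expansins of the EXPA family had a median of -0.49 over 8 tested genes, glutathione transferases of the GSTU family -0.38 over 10 and XTH wall-modifying enzymes -0.29 over 8, all with 0 called. With 1 array left out, the defensin median lay between -0.59 and -0.12, lowest without control replicate 1 and highest without -Zn replicate 1. The GSTU median lay between -0.64 without control replicate 2 and -0.08 without -Zn replicate 2. The XTH median lay between -0.87 without control replicate 2 and -0.05 without control replicate 1. The reference genes SAND (0.17) and TIP41 (0.27) were near 0.

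**Figure D2:**
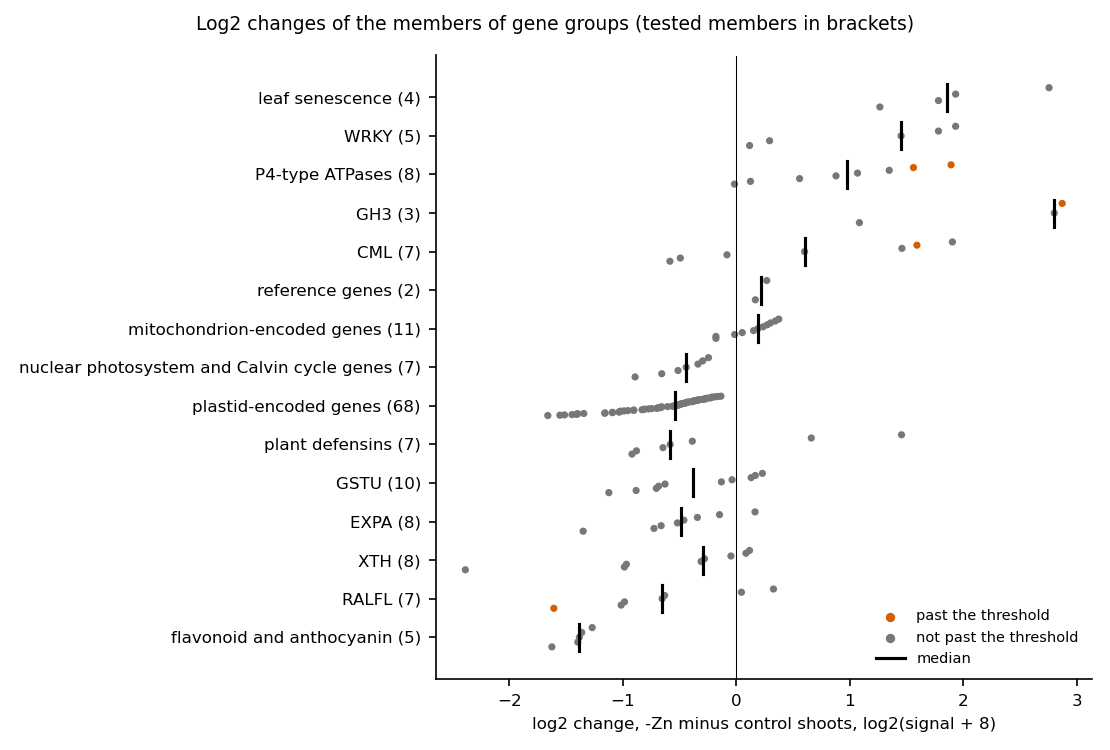
Log2 change (-Zn minus control shoots) of each tested member of 15 gene groups, 1 point per probe set, with the group median as a bar and members past the threshold in orange. All 68 plastid-encoded genes and all 5 anthocyanin genes lie below 0 and all 4 senescence genes above it, without 1 member past the threshold in these 3 groups.

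Agreement of the replicate arrays was described over all tested probe sets. Across the tested probe sets, log2 signals correlated with r = 0.938 between the -Zn arrays and 0.95 between the control arrays, and with r = 0.94 between -Zn replicate 2 and control replicate 2, as a description over genes that share arrays. Both -Zn arrays exceeded both controls in 3402 probe sets (19.9%) and lay below both in 3590 (21%). A gap of more than 1 on the log2 scale between the nearest arrays was seen in 357 probe sets that were higher and 96 that were lower, and a gap of more than 2 in 54 and 3. All 157 called probe sets were free of overlap. The calls were made on these same arrays, so this is no separate measure of agreement.

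Genes that moved beyond 1 log2 unit in the same direction in both same-numbered pairs were 592 higher and 238 lower. The named gene with the widest opposition among the 158 described above, picked after its values were seen, was AT1G62500, a lipid transfer family gene, with 1671 and 207.9 in -Zn shoots against 31.8 and 3617 in control shoots. It was high on -Zn replicate 1 and control replicate 2 alone.

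Some genes outside the called set also had wide gaps. AT5G19880, a peroxidase gene, had 112.1 and 487 in -Zn shoots, against 6.6 and 20.2 in control shoots (limma adjusted p = 0.0612). On the lower side, EXLA2, an expansin-like gene, had 111.7 and 44.4 against 805.1 and 290.9 (limma adjusted p = 0.11). GIS, a zinc-finger transcription factor gene of trichome formation, had 198.8 and 222.6 against 573.6 and 726.5 (limma adjusted p = 0.0925). The other genes on the lower side by this rule, AT1G16850, AT1G69523 and AT3G46490, had log2 changes of -1.75, -2.12 and -1.75 and were not called.

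**Figure D3:**
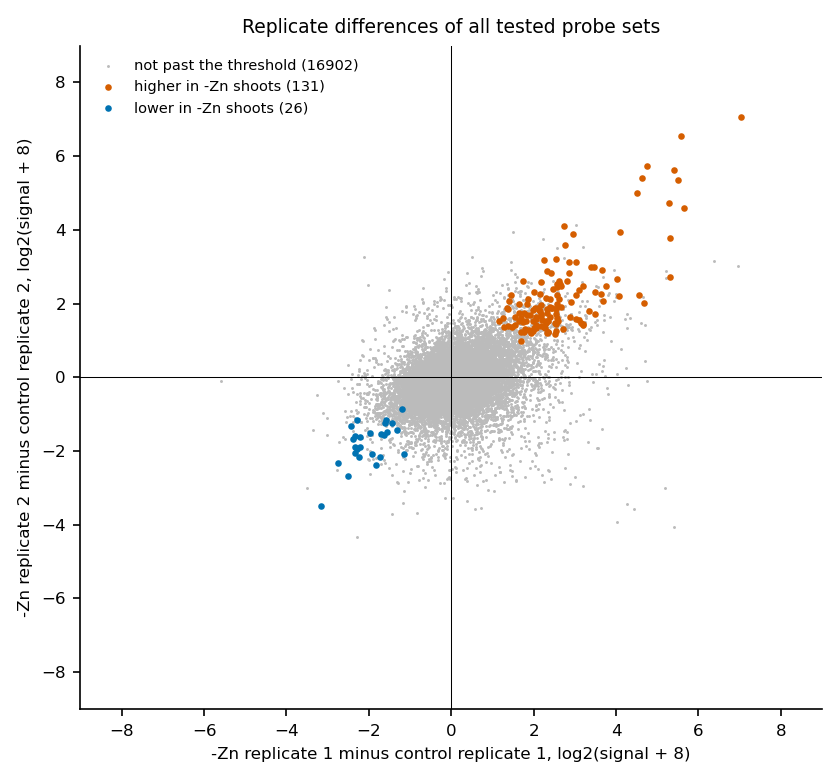
Difference in log2(signal + 8) of -Zn minus control for replicate 1 (x axis) and replicate 2 (y axis), 1 point per tested probe set, with the 131 called higher in orange and the 26 called lower in blue. The called probe sets lie in the corners where both replicates differ in the same direction, which the calls on these same arrays favour. Grey points at the lower right are high in the first pair and low in the second.

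The number of calls depended on single arrays. It was 41 without -Zn replicate 1, 66 without -Zn replicate 2, 17 without control replicate 1 and 331 without control replicate 2. Of the 157 called with all arrays, 20, 36, 14 and 111 were called again in these fits. The genes AT1G12030, AT1G20380 and ZIP9 were called in each of them. In 89 of the 131 higher and 21 of the 26 lower probe sets, the -Zn mean was farther from control replicate 1 than from control replicate 2, as in 10075 of all 17059 tested.

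**Figure D4:**
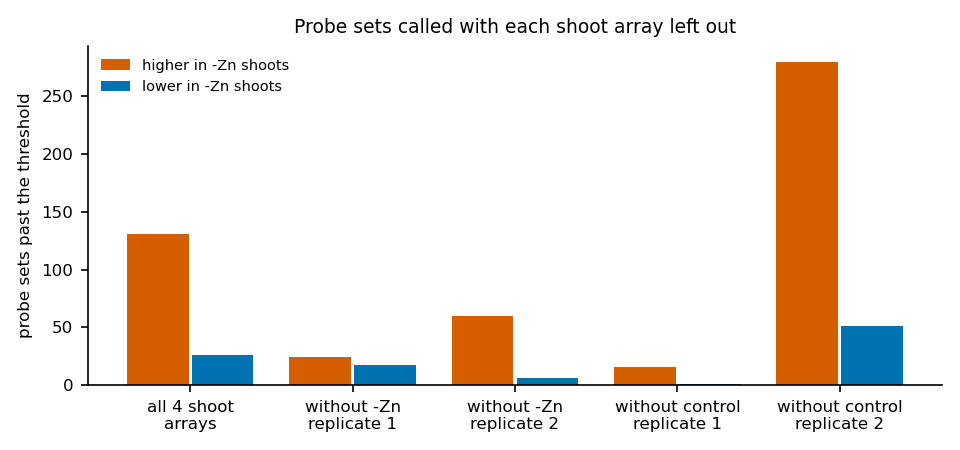
Number of probe sets past the adjusted threshold, higher and lower in -Zn shoots, with all 4 shoot arrays and with each left out. The counts lie between 17 without control replicate 1 and 331 without control replicate 2, against 157 with all arrays.

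The response in shoots was set against that in roots with an interaction term. In roots, 0.106% of the tested probe sets were called higher. The difference between the responses passed for 2 probe sets (0.0117%), both with a lower response in shoots. With either -Zn array left out 0 differences passed, and 2 or 16 when control replicate 1 or 2 was left out. One was MTP2, which had 60.3 and 84.6 in -Zn shoots against 22.5 and 16.3 in control shoots, and 3099 and 2217 in -Zn roots against 4.17 and 1 in control roots. Both control groups lay below background, so the fold was at least 1.37 in shoots, where MTP2 was not called, and at least 50.2 in roots. The size of the fitted difference, -6.43 in log2 units for shoots minus roots (limma adjusted p = 0.00486), is likewise set in part by the added constant. Of the 131 called higher in shoots, 14 were also called higher in roots, which share no arrays with the shoots but share 1 fit.

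AT1G12030, AT1G20380 and ZIP9 had log2 changes of 6.80, 4.61 and 4.21 in roots, and their differences between tissues did not pass. F6'H1 and UGT76B1 had log2 changes of -0.25 and 0.02 in roots, but the differences of 5.02 and 4.00 did not pass either (limma adjusted p = 0.339 and 0.322). In shoots, control replicate 1 lay below background for F6'H1 and UGT76B1, so these sizes are set in part by the added constant. In roots both genes were bright in all arrays: F6'H1 stood at 7205 and 8669 in -Zn roots and at 9382 and 9435 in control roots.

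The response was also set against the difference between hma2 hma4 and wild-type shoots at 21 days, in a fit of all 16 arrays. This fit takes its spread from all 16 arrays and the main fit from 8, so their counts of calls are not on the same footing. The Zn response was higher than the mutant difference in 68 probe sets (0.399%) and lower in 31 (0.182%). AT1G20380 had signals of 1890 and 1583 in hma2 hma4 shoots, against 186.7 and 212.5 in wild-type shoots (log2 difference 3.07), and ZIP9 had 554.1 and 212.1 against 58.6 and 32.6 (2.76). Both were called in the mutant as well. The Zn response of AT1G20380 exceeded the mutant difference by 1.95 (limma adjusted p = 0.0125), and that of ZIP9 by 2.25 without passing (limma adjusted p = 0.0759).

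AT1G12030 had 19.1 and 30.6 in hma2 hma4 shoots, against 2.84 and 7.25 in wild-type shoots, all below background, and its Zn response was larger than the mutant difference (limma adjusted p = 0.00431). The Zn response was also larger for F6'H1, UGT76B1 and AT4G20000. F6'H1 and AT4G20000 had missed the threshold in the main fit, as had AT4G35320, AT5G25240 and AT1G69080 on the lower side. No size is given for AT1G12030, F6'H1, UGT76B1 and AT4G20000, since 1 or more of the arrays compared were below background. A wild-type array of ZIP9 was below background as well, so the sizes given for ZIP9 above are set in part by the added constant. On the lower side, AT4G35320 and AT5G25240 differed by -2.996 and -2.85, and AT1G69080 and AT5G38700, with -Zn shoots below background, were the other 2. Higher and lower together, 99 differences passed with all arrays, against 66 when control replicate 1 was left out and 776 when control replicate 2 was. In the mutant, 0.0645% of tested probe sets were called higher. Of the 131 called higher in -Zn shoots, 127 were tested in the 16-array fit and 6 were called higher in the mutant. The experiments differ in age, medium and culture, which cannot be told apart from the condition.

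**Figure D5:**
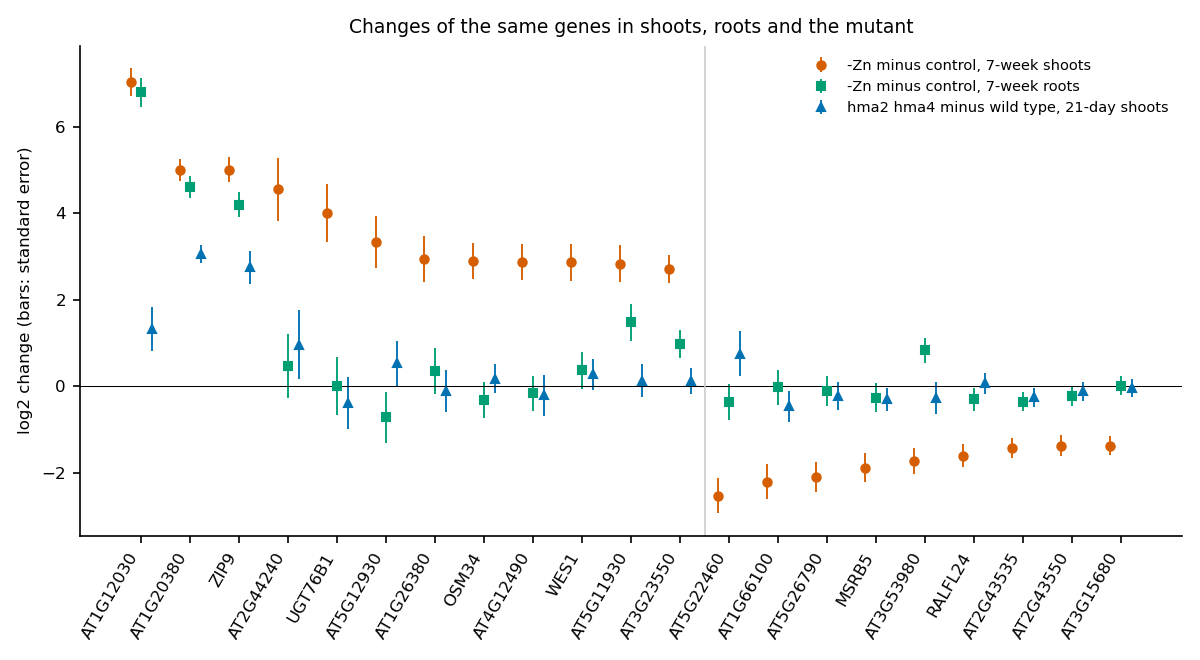
Log2 change with its standard error for the same 21 genes in -Zn shoots, -Zn roots and hma2 hma4 shoots, each minus its control or wild type. AT1G12030, AT1G20380 and ZIP9 are high in shoots and roots and AT1G20380 and ZIP9 also in the mutant, while most other genes lie near 0 outside -Zn shoots.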

How the data were processed

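Total RNA of shoots and roots was hybridised to ATH1 arrays, 2 per group. The deposited values are log2 signals, made with MAS5 per the submitters' processing notes; its version is not given in the sources used here. Next, the authors' log2 values were converted to linear signals, whose mean after trimming 2% at either end was about 500 on every array, and 2413 values stood at 1. Then 8 was added and log2 taken, which understates changes of dim genes. After leaving out 64 control probe sets and those with a mean in the lowest 25% of the 8 arrays of the 7-week experiment, 17059 of 22746 probe sets entered the model of limma 3.58.1 (R 4.3.3; group means of 4 groups sharing 1 spread, eBayes with an intensity trend); the mutant was compared in a fit of all 16 arrays. A fold against a group below 52.2, the highest signal of 3 Trpn probe sets, is "at least" and uses signals without the constant. The number of arrays limits the precision.

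The platform annotation gave 1 gene for 13513 probe sets, of which 13436 matched RefSeq TAIR10.1, and several for 503; 8794 are not listed. No coordinates, sequences or promoters were used here. Members and lists were chosen with earlier results of these data known: 24 lists with 293 loci, 57 with a probe set; for 7 lists, among them nicotianamine, carbonic anhydrases, jasmonate and cell division, no member was measured. Named genes were list members, the 12 largest rises and falls among non-overlapping called genes brighter than the median signal, the 10 widest gaps each way, and the 4 largest differences each way between responses; the kinase, flippase, methionine sulfoxide reductase and other class groupings came after seeing the values. The script was tested on simulated data. Alternatives are in the closing section.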

Additional observations from a re-analysis of the deposited data

Results flagged for a closer look

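The Zn response of MTP2 differed between tissues by the interaction test, at -6.43 on the log2 scale for shoots minus roots (limma adjusted p = 0.00486). Its control shoots (22.5 and 16.3) and control roots (4.17 and 1) lay below background, so this size is set in part by the added constant of 8 and gives no bound. The unnamed probe set 246596_at differed by -7.80 (limma adjusted p = 0.00486), with signals of 5390 and 3528 in -Zn shoots against 16966 and 15142 in control shoots, and 5941 and 2387 in -Zn roots against 50.2 and 58 in control roots. Without either -Zn shoot array 0 differences passed in limma.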

How the results depend on the processing

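Of 16 alternative settings, all kept 11 of the 157 called probe sets, among them AT1G12030, AT1G20380 and ZIP9. The count of 157 became 94 with quantile normalization, 333 with an added constant at the 30th percentile of the signals, 33 without a filter, 14 with array weights, 16 with the 4 shoot arrays alone and 1440 with all 16 arrays, and lay between 17 and 331 with 1 shoot array left out, where a lone array is assumed to vary like the other groups. The 2 differences between shoots and roots became 5 with quantile normalization, 4 with a filter at the 50th percentile and 142 with all 16 arrays, and lay between 0 and 16 with 1 array left out. The 99 differences from the mutant became 225 with the constant at the 30th percentile and 11 with array weights, and lay between 66 and 776 with 1 array left out. The causes were not tested.

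With the replicate number as a block, 281 probe sets were called, 156 of them among the 157, with 2 differences between tissues and 209 from the mutant. The numbers are not shown to pair the samples. Across the tested probe sets, the difference between replicates correlated at 0.165 between -Zn and control shoots, each group having 2 arrays.

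With 1 array left out, uncalled genes changed sign: PDF1.2A (-1.89 to 0.13), BGLU42 (-0.32 to 0.22), bZIP19 (-0.35 to 0.20), PORB (-0.67 to 0.0599), S8H (-0.42 to 0.20), EXPA18 (-0.36 to 0.70), GSTU25 (-0.60 to 0.86), MTP12 (-0.0708 to 0.31), PDF2.2 (-0.80 to 0.0255), MTP11 (-0.41 to 0.0875) and ZIP6 (-0.50 to 0.25).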
